A study of Mus musculus with 115 samples.

Results

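The transcripts described here encode the subunits of the mitochondrial respiratory chain and ATP synthase. Their members were all array probes whose gene symbol begins with Nduf (complex I), Sdh followed by a, b, c or d (complex II), Uqcr (complex III), Cox4 to Cox8 (complex IV) or Atp5 (complex V). Cox8b and Cox7a1, isoforms of brown fat and muscle, were left out of the set. This gave 71 genes, by symbol, of the 18120 on the array, read by 86 of its 25697 probes. Complex I was covered by 37 probes, complex II by 6, complex III by 6, complex IV by 17 (Ndufa4, named for complex I and now placed in complex IV, was counted there) and complex V by 18. The remaining 2 probes, for the assembly factor Ndufaf1 and for Atp5s (now Dmac2l), share the prefix but are not subunits.

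Complexes I to IV carry electrons from NADH and succinate to oxygen, complexes I, III and IV pump protons across the inner mitochondrial membrane as they do so, and complex V uses the proton gradient to make ATP. Most subunits are encoded in the nucleus and made in every cell, but some subunits of complex IV have tissue-restricted isoforms, among them the muscle form Cox6a2 and its widely expressed counterpart Cox6a1. Brown and beige adipocytes and muscle fibres are rich in mitochondria compared with white adipocytes, so the makeup of a fat sample bears on its content of these transcripts.

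The mice were of the FCG model on a C57BL/6J background. Their Y chromosome (Y-) has lost Sry, the gene that starts testis development, and a Sry transgene is carried by some of the animals. The 4 genotypes were XX and XY-, which lack Sry and develop ovaries, and XXSry and XY-Sry, which carry the transgene and develop testes. All mice were gonadectomised at 75 days of age and given a Silastic capsule that was blank or held testosterone (5 mM) or 50 µg of estradiol, and liver and inguinal fat were taken 3 weeks later. The liver gave 60 arrays in 12 groups of 5. Inguinal fat gave 55 arrays: 3 for XX with a blank capsule, 4 for XX with testosterone, XXSry with estradiol and XY-Sry with a blank capsule, and 5 for each other group. Thus 17 blank, 19 testosterone and 19 estradiol arrays were compared in fat and 20 of each in liver, with 28 fat and 30 liver arrays carrying Sry against 27 and 30 without. No group had intact gonads, so a gonad effect here is one of earlier gonadal development, or of Sry itself, that lasted after the gonads were removed. Whether each array was a separate animal was not stated in the sources used here, so the p-values measure the spread between arrays.

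Each value is a log2 bead intensity after background correction and quantile normalisation, and each effect is a difference in log2 units from a linear model (limma) with its standard error (SE). Hormone effects are averages over the 4 genotypes, each compared with its own blank group. P-values were adjusted by the Benjamini-Hochberg method over all tested probes, and a difference counted as a rise or a fall at an adjusted p under 0.05. Of the 86 probes, 83 were detected often enough to be tested in fat and 80 in liver. Cox8c, Ndufs1 and Uqcrfs1 were detected on no array of either tissue. Cox4i2 and Ndufab1 were detected on 0 of 60 liver arrays and Cox6a2 on 1 of 60. Testosterone and estradiol were set against the same blank arrays, so their differences are not independent. In bulk tissue, fewer cells of one type and less RNA per cell cannot be told apart.

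Between 40.3% and 49.0% of probes were detected on a fat array and between 31.8% and 41.0% on a liver array. Several arrays stood apart. In fat, 1 array (XY-Sry, testosterone, replicate 1) had a hepatocyte score, the mean log2 intensity of the hepatocyte marker probes, of 13.31 and 2 others had 10.43 and 10.36, against at most 8.87 on the rest; liver arrays had 12.17 to 12.76. Without these 3, 4 member probes were called with testosterone and 17 with estradiol, against 4 and 19 with them. Another fat array (XX, estradiol, replicate 1) is labelled testosterone in its agent field; without it the counts were 4 and 17. In liver, 1 array labelled XY-Sry testosterone (replicate 5) had sex-linked transcripts like those of XX arrays, and 1 array labelled XY- estradiol (replicate 5) lay with the testosterone arrays in its hormone-responsive transcripts. The estradiol count in liver was 7 with both, 6 without the first and 8 without the second, and the testosterone count was 1, 2 and 1.

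In inguinal fat, estradiol was accompanied by lower respiratory chain transcripts, with a negative median in every complex. Of 83 tested probes, 18 fell and 1 rose, where 10.1% of all tested probes fell and 20.5% changed in either direction. The difference was negative for 77 of the 83, with a median of -0.17 against -0.02 for all tested probes. All 36 complex I probes had a negative difference (median -0.17) and 8 of them fell. Of 16 complex IV probes, 15 were negative, 7 fell and 1 rose (median -0.24). In complex III, 1 of 5 fell (median -0.13). In complex V 2 of 18 fell (median -0.08), a share near the 10.1% of all tested probes. The 6 complex II probes were all negative (median -0.26), and none passed the test.

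**Figure D1:**
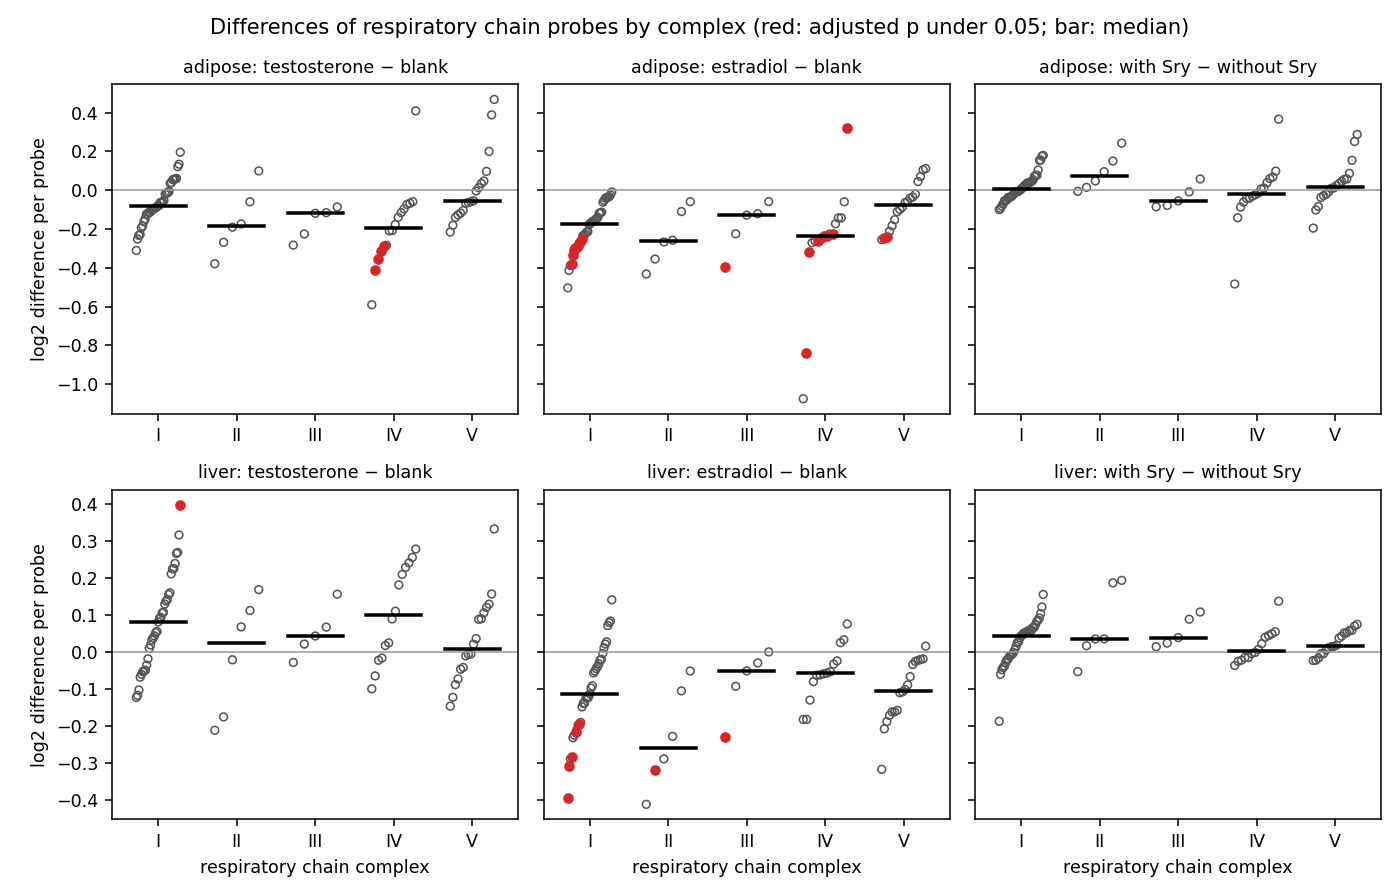
Log2 differences of the tested respiratory chain probes, grouped by complex on the x axis, in fat (top) and liver (bottom) for testosterone minus blank, estradiol minus blank, and arrays with Sry minus arrays without Sry. Each point is a probe, filled in red where the adjusted p was under 0.05, and the bar is the median of the complex; Ndufaf1 and Atp5s are not drawn. Red points lie below 0 in the estradiol panels of both tissues, apart from Cox7a2l in fat at 0.32, and no point is red in the Sry panels.

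The complex I subunit with the largest fall was Ndufb8, an accessory subunit of the membrane arm. Its log2 intensity ran from 13.63 (median 14.03) to 14.38 on the blank arrays, from 13.46 (median 13.84) to 14.23 with testosterone and from 13.25 (median 13.65) to 13.98 with estradiol. The lowest estradiol arrays lay below every blank array, but the ranges overlapped. The difference with estradiol was -0.38 ± 0.08 (SE; adjusted p = 0.00028).

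Ndufv1, the NADH-oxidising flavoprotein subunit, ran from 12.72 (median 13.12) to 13.36 on blank arrays and from 12.36 (median 12.74) to 13.19 with estradiol. These ranges also overlapped, with a difference of -0.34 ± 0.08 (adjusted p = 0.0015). The accessory subunit Ndufa10 fell by 0.31 ± 0.08 (adjusted p = 0.00591). For Ndufa8, another accessory subunit, 1 probe fell by 0.30 ± 0.07 (adjusted p = 0.00266) and the second had -0.18 ± 0.11 (adjusted p = 0.262). The other called probes of complex I had differences between -0.29 and -0.25. When the slide was fitted as a block, Ndufb8 and Ndufv1 kept their estradiol calls and the other called probes of complex I lost theirs.

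In complex II, where succinate dehydrogenase feeds electrons from the citric acid cycle into the chain, the largest difference was that of the membrane anchor Sdhd (-0.43 ± 0.19, adjusted p = 0.115). The 3 Sdhb probes had -0.36, -0.11 and -0.06. In complex III, the core protein Uqcrc2 had the smallest adjusted p of all members. It ran from 13.46 (median 13.73) to 14.12 on blank arrays, from 13.20 (median 13.54) to 13.96 with testosterone and from 12.95 (median 13.38) to 13.58 with estradiol. The upper part of the estradiol range overlapped the lower part of the blank range. Uqcrc2 fell by 0.40 ± 0.07 with estradiol (adjusted p = 4.94e-05) and had -0.23 ± 0.07 with testosterone (adjusted p = 0.0619). Its partner Uqcrc1 had -0.22 ± 0.11 with estradiol (adjusted p = 0.155).

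**Figure D2:**
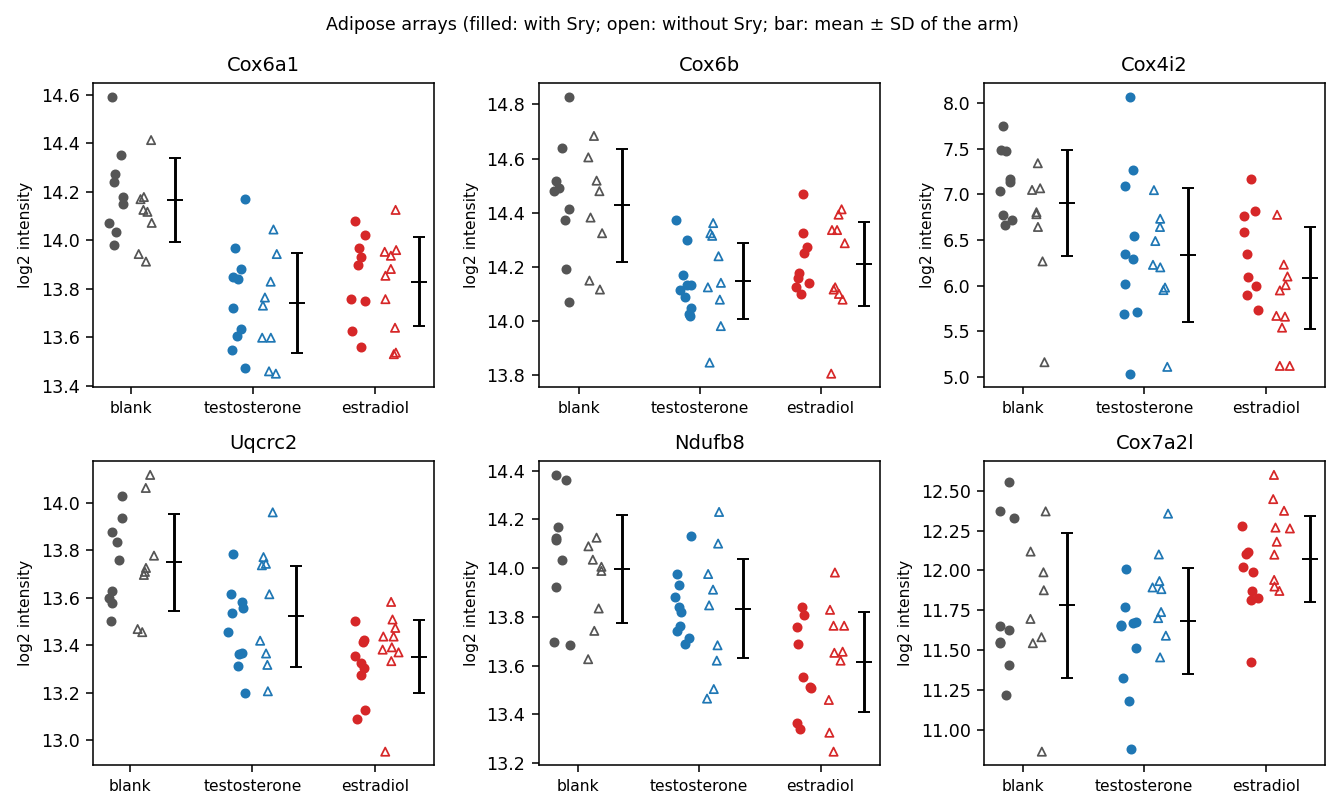
Log2 intensity on every fat array for 6 member probes (Cox6a1 is probe ILMN_2638875 and Cox6b is probe ILMN_1254971), by capsule on the x axis. Filled symbols carry Sry, open symbols do not, and the bar is the mean ± SD of the arm (17 blank, 19 testosterone and 19 estradiol arrays). The estradiol mean lies below the blank mean in every panel except Cox7a2l, where it lies above, and all ranges overlap.

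Complex IV held the only member probes that fell with both hormones, those of Cox6a1, the widely expressed form of subunit VIa, and of Cox6b, now named Cox6b1, which lies on the intermembrane face of the enzyme. Each gene has a pair of probes and all 4 probes fell with each hormone. Because both hormones were compared with the same blank arrays, these falls share their reference. With the slide as a block, probe ILMN_2638875 of Cox6a1 was the only one of the 4 that kept both calls: the testosterone adjusted p was 0.0532 for the second Cox6a1 probe and 0.147 and 0.0792 for the Cox6b probes, and the estradiol adjusted p was 0.399 and 0.314 for the Cox6b probes. Since the pair moved under both hormones, the 250 bases before the annotated start of each gene are shown (RefSeq, GRCm38.p6), with the letters of an NRF1 motif (GCGCA followed directly by TGCGC) in capitals where present. The Cox6a1 sequence is chr5:115348959-115349208 and the Cox6b1 sequence is chr7:30626115-30626364, both on the minus strand.
Cox6a1: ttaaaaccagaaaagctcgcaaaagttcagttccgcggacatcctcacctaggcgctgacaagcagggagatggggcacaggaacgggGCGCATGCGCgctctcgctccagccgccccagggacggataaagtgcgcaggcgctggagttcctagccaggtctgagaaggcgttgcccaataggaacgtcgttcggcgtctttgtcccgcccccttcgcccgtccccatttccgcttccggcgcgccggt
Cox6b1: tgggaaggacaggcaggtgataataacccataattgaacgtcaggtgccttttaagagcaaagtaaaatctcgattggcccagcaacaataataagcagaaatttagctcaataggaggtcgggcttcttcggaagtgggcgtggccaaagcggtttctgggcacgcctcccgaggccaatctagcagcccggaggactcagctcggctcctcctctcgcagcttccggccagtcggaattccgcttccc
The NRF1 letters began 162 bases before the Cox6a1 start.

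Cox6a1 probe ILMN_2638875 ran from 13.91 (median 14.15) to 14.59 on blank arrays, from 13.45 (median 13.73) to 14.17 with testosterone and from 13.53 (median 13.88) to 14.13 with estradiol. The bulk of the hormone arrays lay below the blank median, and the ranges overlapped. The difference was -0.41 ± 0.07 with testosterone (adjusted p = 0.000126) and -0.32 ± 0.07 with estradiol (adjusted p = 0.000649). The second Cox6a1 probe, ILMN_2605400, had -0.36 ± 0.10 (adjusted p = 0.0181) and -0.26 ± 0.10 (adjusted p = 0.0437), and lost the estradiol call in 18 of 55 fits that left out 1 array.

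Cox6b probe ILMN_1254971 ran from 14.07 (median 14.48) to 14.83 on blank arrays, from 13.85 (median 14.13) to 14.37 with testosterone and from 13.81 (median 14.18) to 14.47 with estradiol. The blank arrays reached higher than either hormone arm, with overlap below. The difference was -0.29 ± 0.07 with testosterone (adjusted p = 0.00547) and -0.22 ± 0.07 with estradiol (adjusted p = 0.0106). Its second probe, ILMN_2616405, had -0.31 ± 0.08 (adjusted p = 0.0146) and -0.24 ± 0.08 (adjusted p = 0.0313).

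These 4 probes were the only members that changed with testosterone in fat: 4 of 83 fell and none rose, where 4.75% of all tested probes changed and 2.59% fell, so the share over the whole chain was near the background. The testosterone difference was negative for 63 of 83 members (median -0.09, against -0.02 for all tested probes). The medians were -0.08 for complex I, -0.18 for complex II, -0.12 for complex III, -0.19 for complex IV and -0.06 for complex V, with 15 of 16 complex IV probes negative. In the 38 arrays left after those rich in muscle transcripts were removed (below), 12 members fell. Without XY- blank replicate 3 the count was 7, and without XY- testosterone replicate 2 it was 8.

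Cox4i2, an alternative form of subunit IV known for its induction by low oxygen, had the largest fall of all members with estradiol. Its log2 intensity ran from 5.16 (median 7.04) to 7.75 on blank arrays, from 5.04 (median 6.29) to 8.07 with testosterone and from 5.12 (median 6.01) to 7.17 with estradiol. It was detected on 16 of 17 blank, 13 of 19 testosterone and 12 of 19 estradiol arrays, so the low values are near the detection limit and the difference may be understated. The difference was -0.84 ± 0.20 with estradiol (adjusted p = 0.00144) and -0.59 ± 0.20 with testosterone (adjusted p = 0.0773). The main form, Cox4i1, had -0.14 ± 0.08 with each hormone (adjusted p = 0.245 with estradiol and 0.374 with testosterone).

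Ndufa4 fell by 0.24 ± 0.06 with estradiol (adjusted p = 0.00317), from 13.67 to 14.13 (median 13.93) on blank arrays and 13.50 to 13.97 (median 13.70) with estradiol. Cox7a2l, counted here in complex IV by its prefix, was the single member that rose. It ran from 10.86 (median 11.65) to 12.55 on blank arrays and from 11.43 (median 12.10) to 12.60 with estradiol. Its lowest estradiol array lay above several blank arrays, and the ranges overlapped. The rise was 0.32 ± 0.12 (adjusted p = 0.0433), and this call was lost in 20 of the 55 fits that left out 1 array. The conventional paralogue Cox7a2 had -0.26 ± 0.20 (adjusted p = 0.389) and Cox8a had -0.14 ± 0.08 (adjusted p = 0.213).

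In ATP synthase, the central stalk subunit Atp5c1 fell by 0.25 ± 0.08 with estradiol (adjusted p = 0.0149) and the membrane subunit Atp5j2 by 0.24 ± 0.07 (adjusted p = 0.00855). Both calls were lost with the slide as a block. Atp5j2 ran from 14.16 (median 14.43) to 14.84 on blank arrays and from 14.01 (median 14.19) to 14.48 with estradiol, with overlap. Complex V differed within itself: 14 of 18 probes were negative, and Atp5g1, an isoform of the c-ring, ran from 11.37 (median 11.92) to 13.41 on blank arrays and from 11.84 (median 12.06) to 13.02 with estradiol.

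The 16 genes with a probe that fell with estradiol in fat, all members and all genes were searched for motif letters between 250 bases before and 50 bases after the start. Of the 71 member genes, 58 have an entry in the RefSeq promoter table, 14 of them among the 16. The letters AAGATGGC of a YY1 motif, searched on both strands, were in 10 of 58 members (17.2%), in 5 of these 14 (35.7%) and in 3.19% of all 27025 genes. In 8 of the 10 the letters lay after the start and in 2 before it. The sites of the 5 genes are shown because this motif was the one most often found among them, with the motif in capitals (GRCm38.p6). They include Ndufa9, Ndufs6 and Ndufs7, shown for their letters after their values were seen. In fits that left out 1 array, the estradiol call was lost in 16 of 55 for Ndufs6 and in 29 of 55 for Ndufs7.
Atp5j2 (chr5:145191500-145191529, minus strand, capitals starting 24 bases after the start): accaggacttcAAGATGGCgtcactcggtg
Ndufa9 (chr6:126849097-126849126, minus strand, capitals starting 30 bases after the start): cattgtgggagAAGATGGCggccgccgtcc
Ndufb8 (chr19:44555393-44555415, minus strand, capitals starting 39 bases after the start): cggagaaggtgAAGATGGCtgcc
Ndufs6 (chr13:73328433-73328460, minus strand, capitals starting 34 bases after the start): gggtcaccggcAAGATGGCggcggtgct
Ndufs7 (chr10:80249462-80249491, plus strand, capitals starting 25 bases after the start): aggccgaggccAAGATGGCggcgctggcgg
The NRF1 letters were in 4 of 58 members (6.90%) and 1.07% of all genes, with Cox6a1 as the single match among the 14. The ETS letters CCGGAAGT were in 5 of 58 (8.62%) and 4.31% of all genes, with 0 of the 14. The letters TCAAGGTCA, bound by estrogen-related receptors, were in 2 of 58 (3.45%) and 0.466%, and the estrogen response element (GGTCA and TGACC with any 3 bases between) was in 0 of 58 and 0.0740%. These matches are descriptions of the letters in a short window and are not binding sites.

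The hormone effects were compared between gonad types. With Sry, 4 members fell with estradiol (10.1% of all tested probes changed); without Sry, 4 fell and 1 rose (10.2% changed). Of all tested probes, 4.15% fell with Sry and 5.1% without. Uqcrc2 fell in both, by 0.43 (adjusted p = 0.0034) and 0.37 (adjusted p = 0.015). Ndufb8 had -0.45 with Sry (adjusted p = 0.0045) and -0.31 without (adjusted p = 0.069). Cox4i2 had -0.78 (adjusted p = 0.068) and -0.91 (adjusted p = 0.031), and Cox7a2l had 0.12 (adjusted p = 0.76) and 0.52 (adjusted p = 0.034). The difference between the gonad types (the effect with Sry minus that without) passed the test for no member (0.813% of all tested probes did); the smallest adjusted p belonged to Cox7a2l (-0.40 ± 0.23, adjusted p = 0.983). With testosterone, 2 members fell with Sry (3.55% of all probes changed and 1.71% fell) and 0 changed without (0.417%). The test of that difference was passed by no member (0.0137% of all probes), with Cox7a2l at -0.45 ± 0.23 and Atp5c1 at -0.23 ± 0.15 (adjusted p = 1 for both).

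Gonad type itself changed no member in fat, where 7.34% of all tested probes changed. The difference, with Sry minus without, had a median of 0.01 over the members and 0.03 over all probes, and the complexes had medians of 0.01 (I), 0.07 (II), -0.05 (III), -0.02 (IV) and 0.02 (V). The single member with an unadjusted p under 0.05 was Cox4i2 (0.37 ± 0.16, adjusted p = 0.198), which ran from 5.04 (median 6.69) to 8.07 with Sry and from 5.11 (median 6.23) to 7.34 without. No member changed within the blank (1.8% of all probes), testosterone (3.42%) or estradiol (4.4%) arrays alone. The slides did not share a direction: within the 8 slides the members' median difference ran from -0.33 to 0.25, with 77 of 83 negative on the first slide and 4 of 83 negative on the third.

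Sex chromosome complement (XX and XXSry minus XY- and XY-Sry) changed no member in fat (0.137% of all probes) or liver (0.186%). The X-linked complex I subunit Ndufa1 had 0.00 ± 0.08 in fat (adjusted p = 0.995) and -0.09 ± 0.10 in liver (adjusted p = 0.999). The X-linked complex IV subunit Cox7b had -0.08 ± 0.21 in fat (adjusted p = 0.933) and -0.05 ± 0.07 in liver (adjusted p = 0.999).

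The fat samples differed widely in muscle transcripts. A muscle score, the mean log2 intensity of 22 tested probes for skeletal muscle markers such as Acta1 and Ckm, ran from 6.13 to 12.83 over the fat arrays and from 4.84 to 6.12 over the liver arrays. It ran from 7.60 (median 11.20) to 12.83 on blank arrays, from 7.22 (median 11.19) to 12.80 with testosterone and from 6.13 (median 8.83) to 12.50 with estradiol. The means were 10.51 ± 1.63, 10.67 ± 1.99 and 9.50 ± 1.998 (SD; n = 17, 19 and 19), lowest with estradiol. None of the 22 muscle probes passed the estradiol test (21 negative, median -0.99) or the testosterone test (20 positive, median 0.39). With Sry the score was 9.98 ± 1.84 (SD, n = 28) and without 10.46 ± 2.02 (n = 27). Acta1 was detected on every fat array and Ckm on all but 1.

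Member transcripts followed this score across arrays within groups. The slope, in log2 units of a member per log2 unit of the muscle score, was positive and called for 52 of 83 members and negative and called for 1, where 35.4% of all tested probes were called and 15.9% were called positive. Its median was 0.08 over members and -0.00 over all probes. All 18 complex V slopes were positive and 9 were called; 35 of 36 complex I slopes were positive and 29 called. Of the others, 4 of 6 were called in complex II, 2 of 5 in complex III and 6 positive and 1 negative of 16 in complex IV. In the 38 arrays left without those richest in muscle, which span a narrower range of the score, 2 slopes were called.

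The steepest slope was that of Cox6a2, the heart and skeletal muscle form of subunit VIa, at 1.19 ± 0.03 (adjusted p = 4.77e-33). It ran from 8.38 (median 12.31) to 14.39 on blank arrays, from 7.66 (median 12.24) to 14.44 with testosterone and from 6.83 (median 9.83) to 14.13 with estradiol. The estradiol arrays reached lower and had the lowest median, like the muscle score, and the 3 ranges overlapped widely. Its hormone differences were 0.41 ± 0.73 with testosterone (adjusted p = 0.797) and -1.08 ± 0.73 with estradiol (adjusted p = 0.332; 95% interval -2.55 to 0.40). The next steepest slopes were those of Atp5g1 (0.25 ± 0.03, adjusted p = 9.49e-08) and the complex I accessory subunit Ndufb2 (0.24 ± 0.06, adjusted p = 0.000583). Cox7a2l had the negative slope (-0.08 ± 0.03, adjusted p = 0.00976). Of the members that fell with both hormones, both Cox6a1 probes had a slope of -0.04 (adjusted p = 0.177 and 0.0637). The Cox6b probes had 0.05 ± 0.02 (ILMN_2616405, adjusted p = 0.0365) and 0.03 ± 0.02 (ILMN_1254971, adjusted p = 0.16).

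**Figure D3:**
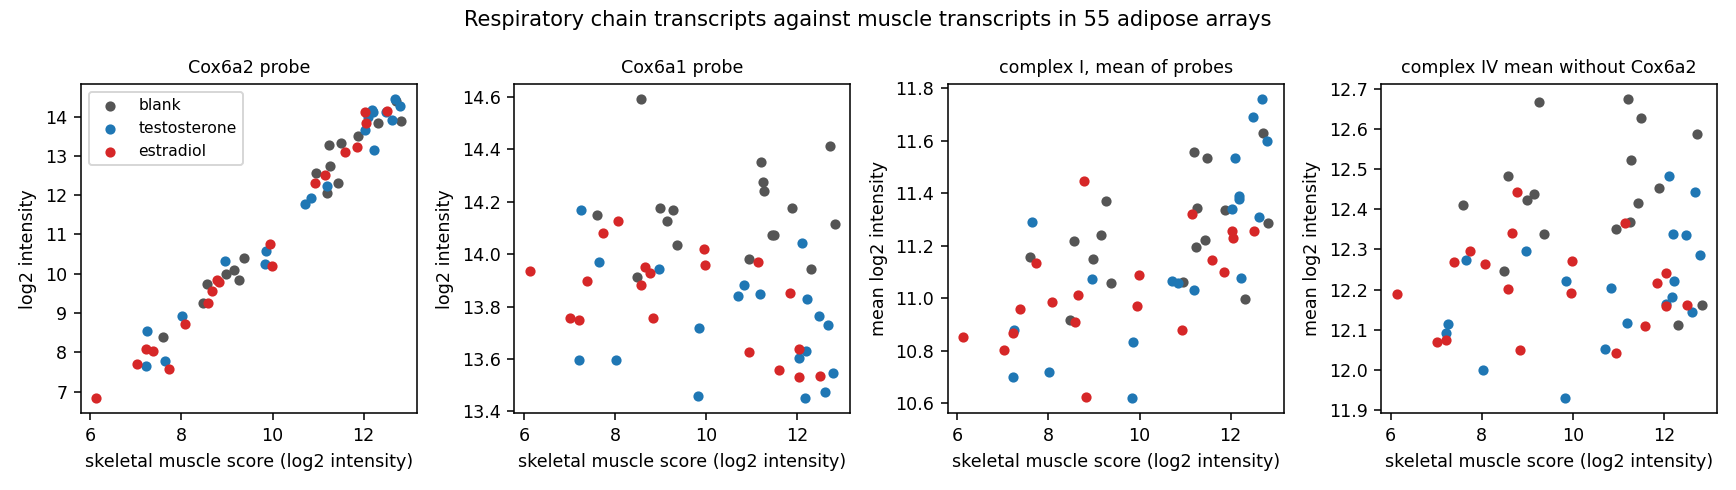
Log2 intensity of the Cox6a2 probe, of Cox6a1 probe ILMN_2638875, of the mean of the complex I probes and of the mean of the complex IV probes other than Cox6a2 and Cox8c (y axes), against the muscle score (x axis, log2), on the 55 fat arrays coloured by capsule. Cox6a2 rises with the score along 1 line over 6.13 to 12.83 in all 3 arms, while blank arrays lie above most hormone arrays in the Cox6a1 and complex IV panels over the whole width.

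The hormone differences were then fitted with the muscle score as a covariate. With estradiol, 14 members fell and none rose, all 14 among the 19 called without the covariate, and the median went from -0.17 to -0.11 (-0.02 over all probes). In this fit 20.8% of all tested probes changed and 10.3% fell. By complex, 6 fell in complex I, 1 in III, 5 in IV and 2 in V. Values at this setting were -0.35 for Cox6a1 (ILMN_2638875), -0.36 for Uqcrc2, -0.31 for Ndufb8 and -0.89 for Cox4i2, while Cox7a2l (adjusted p = 0.101) and Cox6b probe ILMN_2616405 (-0.19, adjusted p = 0.0715) lost their calls. With testosterone, where 5.65% of all probes changed and 3.05% fell, 9 members fell, the 4 called before and Atp5j2 (-0.20), Cox7c (-0.23), Ndufa9 (-0.26), Ndufv1 (-0.28) and Uqcrc2 (-0.24), of which Cox7c and Ndufa9 are named after their values were seen. The gonad and sex chromosome contrasts called no member with the covariate.

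Leaving out the 17 arrays whose muscle score lay more than 1 log2 unit above its median over the 55 arrays kept 38 arrays, with 1 each for XX with testosterone and XY- with a blank capsule, which are assumed to vary like the others. With estradiol, 21 members fell and 1 rose (median -0.21, against -0.02 over all probes, of which 20.8% changed and 11.1% fell), and 15 of these 22 were among the 19. With testosterone, where 1.86% of all probes changed and 1.43% fell, 12 members fell (median -0.31, against -0.00 over all probes, 79 of 83 negative): 6 in complex I, 2 in III and 4 in IV. The complex medians with testosterone were then -0.32 (I), -0.48 (II), -0.40 (III), -0.36 (IV) and -0.19 (V).

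Transcripts of other cell types moved with the hormones in fat. Of all tested probes, 20.5% changed and 10.1% fell with estradiol, and 4.75% changed with testosterone. The brown fat markers fell with estradiol for 4 of 9 probes, all 9 negative (median -1.03), among them Cidea (-2.87, adjusted p = 3.3e-09) and the uncoupling protein Ucp1 (-2.37, adjusted p = 0.0033), which was detected on 12 of 17 blank, 8 of 19 testosterone and 0 of 19 estradiol arrays. That list includes Cox7a1 and Cox8b, isoforms of brown fat and muscle, so its markers are not all specific to brown fat. The brown fat score was 7.96 ± 0.91 (SD, n = 17) on blank arrays, 7.51 ± 1.18 (n = 19) with testosterone and 6.67 ± 0.43 (n = 19) with estradiol. Macrophage markers rose for 8 of 10 probes with estradiol (median 1.13; Csf1r 1.53, Cd68 1.33, Emr1 1.32) and none changed with testosterone. The macrophage score was 8.68 ± 0.53, 8.84 ± 0.52 and 9.72 ± 0.47 in the same order. Adipocyte markers fell for 5 of 13 probes with estradiol (median -0.30), led by Retn (-0.51), Lep (-0.47) and Lipe (-0.46).

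Member transcripts followed the brown fat score as well: 63 of 83 had a called positive slope, where 23.2% of all probes were called (12% positive), with a median of 0.19 against -0.02. By complex, 31 of 36 were called in I, 4 of 6 in II, 5 of 5 in III, 9 of 16 in IV and 12 of 18 in V. With the brown fat score as a covariate, 3 members fell and 3 rose with estradiol (median 0.03), where 17% of all probes changed and 8.7% fell. With the macrophage score, 1 fell and 6 rose (median 0.13), where 11.5% changed and 5.77% fell. Both scores themselves differed with estradiol, so as covariates they also take up treatment difference, and cell content and treatment cannot be told apart by these fits. Cox6a1 (ILMN_2638875) kept its call with both hormones at all these settings.

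**Figure D4:**
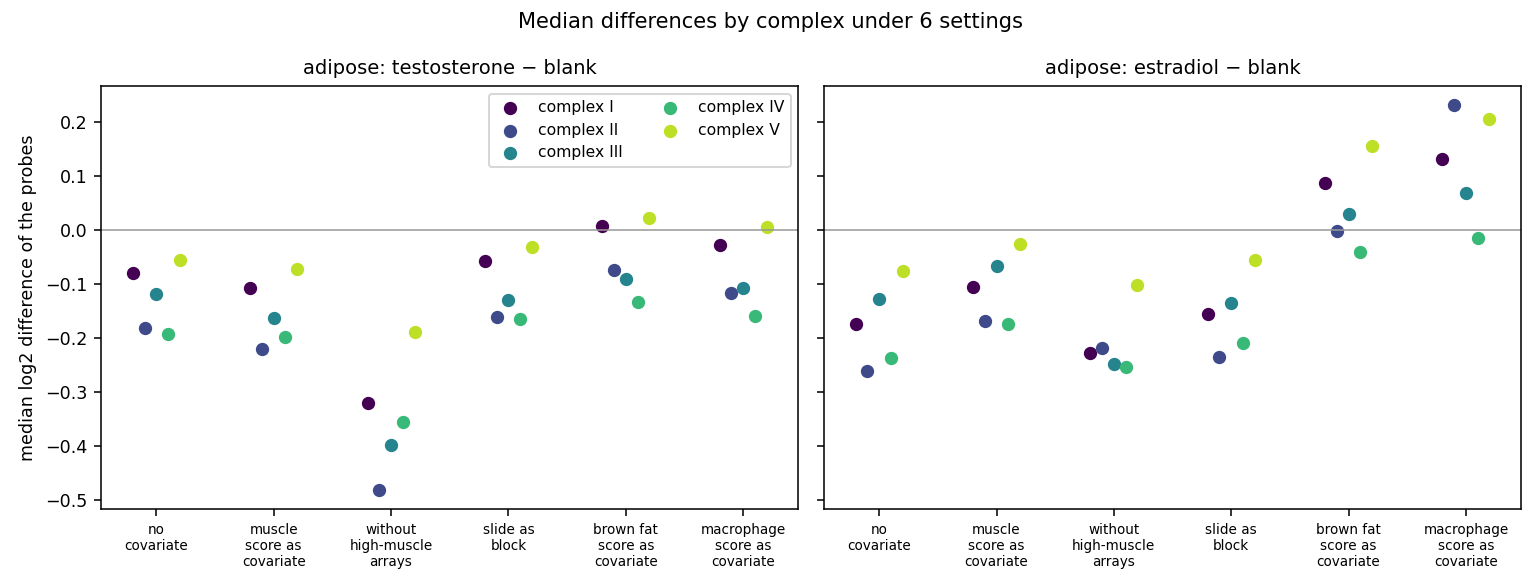
Median log2 difference of the tested probes of each complex in fat (y axis) for testosterone minus blank (left) and estradiol minus blank (right), under the settings named on the x axis. The medians stay below 0 with the muscle score as a covariate, without the high-muscle arrays and with the slide as a block, and with estradiol they lie near or above 0 with the brown fat or macrophage score as a covariate.

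Within single slides that held both capsules, the estradiol difference had a median over members of -0.14 (67 of 83 negative) on slide 2 and -0.13 (64 of 83) on slide 4, and complex IV had -0.11 and -0.23. The testosterone difference had a median over members of -0.00 on slide 1 and -0.18 on slide 3, and complex IV had -0.21 and -0.23. Complex I differed in sign between these slides, with 0.06 (14 of 36 negative) and -0.20 (32 of 36), as did complex V (0.01 and -0.04). With the slide as a block, 9 members were called with estradiol (14.3% of all probes) and 1 with testosterone (1.75%). Every slide lacked at least 1 capsule, so slide and capsule were partly confounded.

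Other mitochondrial genes in fat were counted over fixed lists. Of all tested probes, 20.5% changed and 10.1% fell with estradiol, and 4.75% changed and 2.59% fell with testosterone. Of 21 probes for pyruvate dehydrogenase and the citric acid cycle, 8 fell with estradiol and 20 were negative (median -0.28), led by Idh3a (-0.74 ± 0.22, adjusted p = 0.00967), Ogdh (-0.70 ± 0.13, adjusted p = 5.2e-05) and Dlat (-0.68 ± 0.18, adjusted p = 0.00369). With testosterone, 4 of 21 fell (median -0.16), among them the pyruvate dehydrogenase subunit Pdhb (-0.92 ± 0.19, adjusted p = 0.0012) and the isocitrate dehydrogenase subunit Idh3b (-0.46). Of 25 probes for electron carriers and subunits outside the prefixes, 5 fell and 1 rose with estradiol (median -0.19). The changed share was near that of all tested probes. The coenzyme Q methyltransferase Coq5 had -0.44 with both probes, and the ATP synthase inhibitor Atpif1 rose by 0.34 ± 0.08 (adjusted p = 0.00202). With testosterone, 3 of 25 fell: both probes of the electron transfer flavoprotein Etfb (-0.35 and -0.28) and the ADP/ATP carrier Slc25a5 (-0.25).

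In liver, estradiol was accompanied by small falls, with a negative median in every complex. The called probes lay in complexes I, II and III, with 1 each in II and III. Of 80 tested probes, 7 fell and none rose, where 3.27% of all tested probes fell and 6.82% changed. The difference was negative for 67 of 80 (median -0.09, against -0.02 for all probes). In complex I, 5 of 35 fell (median -0.11), in complex II 1 of 6 with all 6 negative (median -0.26), and in complex III 1 of 5 (median -0.05). None of the 14 complex IV probes (median -0.06) or the 18 complex V probes (17 negative, median -0.10) passed the test. Cox6a1 and Cox6b, which fell in fat, had -0.06 and -0.06 (Cox6a1) and -0.06 and -0.18 (Cox6b; the latter adjusted p = 0.0658).

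The smallest adjusted p was that of Uqcrc1, a core protein of complex III. It ran from 11.48 (median 11.78) to 12.04 on blank arrays, from 11.59 (median 11.81) to 12.06 with testosterone and from 11.03 (median 11.55) to 11.90 with estradiol. The estradiol arrays reached lower than the others, with overlap. Uqcrc1 fell by 0.23 ± 0.06 (adjusted p = 0.00595), while Uqcrc2, which fell in fat, had -0.00 ± 0.06 in liver (adjusted p = 0.999).

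Among the membrane-arm subunits of complex I, Ndufb9 fell by 0.39 ± 0.11 (adjusted p = 0.0129), from 7.20 to 8.42 (median 7.72) on blank arrays and 6.67 to 7.92 (median 7.36) with estradiol. Ndufb8 fell by 0.22 ± 0.06 (adjusted p = 0.0148), from 12.73 to 13.30 (median 12.88) and 12.14 to 13.002 (median 12.73). Both arms overlapped for each gene, and Ndufb8 is the subunit that fell with estradiol in both tissues together with Ndufv2. Unlike Ndufb8, Ndufv2 lost its call with the slide as a block in both tissues (adjusted p = 0.136 in liver). It also lost the liver call in 8 of 60 fits that left out 1 array. Ndufb4 fell by 0.28 ± 0.08 (adjusted p = 0.0277), and Ndufv2, an iron-sulfur subunit of the NADH-oxidising module outside the naming rule for fat, fell by 0.19 ± 0.06 in liver (adjusted p = 0.0335) and 0.29 ± 0.08 in fat (adjusted p = 0.00907).

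One of 2 Ndufa5 probes had -0.31 ± 0.10 (adjusted p = 0.04998), and this call was lost in 43 of 60 fits that left out 1 array. In complex II, 1 of 2 probes of the membrane anchor Sdhc fell by 0.32 ± 0.09 (adjusted p = 0.0281), from 7.07 to 7.87 (median 7.42) on blank arrays and 6.49 to 7.67 (median 7.15) with estradiol, with overlap. The second Sdhc probe had -0.11 ± 0.14 (adjusted p = 0.748).

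**Figure D5:**
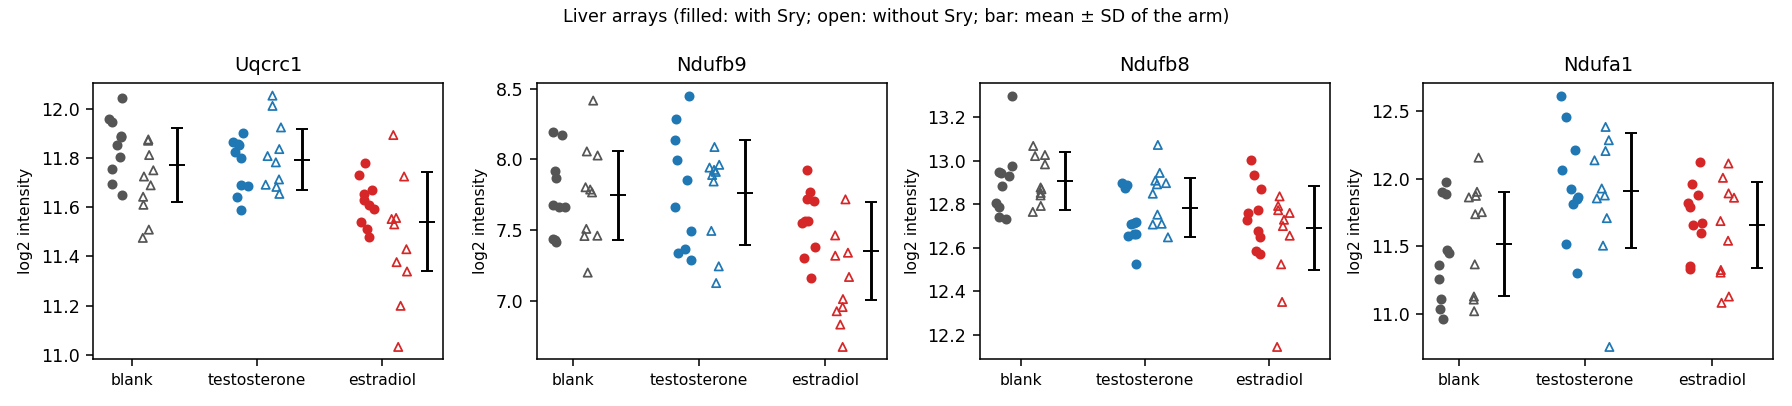
Log2 intensity on every liver array for 4 member probes by capsule on the x axis, with 20 arrays per arm. Filled symbols carry Sry, open symbols do not, and the bar is the mean ± SD of the arm. Estradiol arrays reach lower than blank arrays for Uqcrc1, Ndufb9 and Ndufb8, testosterone arrays reach higher than blank arrays for Ndufa1, and all ranges overlap.

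Testosterone changed 1 of 80 members in liver, where 19.1% of all tested probes changed and 8.17% rose. Ndufa1, the X-linked accessory subunit of complex I, ran from 10.96 (median 11.46) to 12.15 on blank arrays, from 10.75 (median 11.90) to 12.61 with testosterone and from 11.08 (median 11.68) to 12.12 with estradiol. The testosterone arrays held both the lowest and the highest value. The rise was 0.40 ± 0.12 (adjusted p = 0.0173). Over the members 52 of 80 differences were positive (median 0.05, against 0.00 for all probes), with medians of 0.08 (I), 0.02 (II), 0.04 (III), 0.10 (IV) and 0.01 (V). Cox4i1 had 0.24 ± 0.12 (adjusted p = 0.142), Cox7a2 0.28 ± 0.12 (adjusted p = 0.1), Cox7a2l 0.09 ± 0.09 (adjusted p = 0.538), Cox8a 0.11 ± 0.08 (adjusted p = 0.382) and Ndufa4 -0.02 ± 0.08 (adjusted p = 0.888). With Sry the same gene was the member called (0.52, adjusted p = 0.0489; 9.14% of all probes changed) and without Sry none was (7.06%). The count over all arrays was unstable: leaving out 1 array gave 1 to 8 members, with 8 in the fit that lacked XXSry testosterone replicate 1.

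Gonad type changed no member in liver (3.4% of all probes; median 0.03, against 0.01), nor did it within the blank (1.75% of all probes), testosterone (0.212%) or estradiol (2.44%) arrays alone. With estradiol, no member changed with Sry (1.78% of all probes), and the median over members was -0.06. Without Sry 2 fell (2.47% of all probes changed and 1.1% fell), and the median was -0.15. These were Ndufb9, by 0.61 (adjusted p = 0.014), and probe ILMN_2632890 of the peripheral-stalk subunit Atp5j, by 0.60 (adjusted p = 0.018). Over all genotypes this Atp5j probe had -0.32 with estradiol (adjusted p = 0.0607), while Atp5j probes ILMN_2611261 and ILMN_2962632 had 0.02 and -0.02. The test of the difference between gonad types was passed by none (0.0795% of all probes): Atp5j probe ILMN_2632890 had 0.57 ± 0.21 (adjusted p = 0.623) and Atp5s -0.42 ± 0.19 (adjusted p = 0.869). For testosterone the same test was passed by none (0.124%), and Uqcrc1 had -0.20 ± 0.11 (adjusted p = 0.896). Within single slides the estradiol difference over members was -0.08 (54 of 80 negative) and -0.13 (71 of 80). The testosterone difference over members was 0.03, 0.00 and 0.03 on slides 1, 3 and 5. For complex II the testosterone medians on these slides were negative (-0.22, -0.16 and -0.06), unlike the complex II median over all arrays.

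Of 20 liver probes for pyruvate dehydrogenase and the citric acid cycle, 2 fell with estradiol, among them the succinyl-CoA ligase subunit Suclg1 (-0.30 ± 0.09, adjusted p = 0.0271). None of 23 electron carrier probes changed with estradiol. Of all tested liver probes, 6.82% changed and 3.27% fell with estradiol, and 19.1% changed with testosterone. With testosterone, the coenzyme Q hydroxylase Coq7 rose by 0.47 ± 0.11 (adjusted p = 0.000755) and Atpif1 fell by 0.47 ± 0.08 (adjusted p = 5.84e-06). Atpif1 had risen with estradiol in fat, but hormone and tissue both differ between these 2 values.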

How the data were processed

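Total RNA from liver and inguinal fat was measured on Illumina BeadChips. The deposited values are mean bead intensities on a linear scale with a detection p-value per probe, per the file headers. The submitters' processing notes name lumi; its role and version are not given in the sources used here. The 115 columns of bead standard errors were not used.

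From the intensities, the background was corrected with limma 3.58.1 in R 4.3.3 (normexp inferred from the detection p-values, offset 16), followed by quantile normalisation within each tissue and log2. Probes with a detection p under 0.01 on 3 or more fat arrays or 5 or more liver arrays (the size of the smallest group) were tested (14636 in fat, 11317 in liver). A mean was fitted for each group with limma (empirical Bayes), and contrasts weighted groups equally. Hormone contrasts are capsule minus blank; the gonad contrast is with Sry minus without; the sex chromosome contrast is 2 X chromosomes minus X and Y-. All p-values from limma were adjusted over all tested probes of the tissue. The procedure was tested on simulated data. Scores are means of log2 marker intensities; muscle-rich arrays had a muscle score more than 1 log2 unit above the median of the fat arrays. Replicate numbers follow accession order and pair nothing.

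Symbols of 71 of 71 members matched RefSeq, 67 of them as listed. The members and lists were chosen with earlier results of these data known. Named genes were the called members, up to 4 of the largest differences per complex and contrast, the isoform genes, X-linked members, the 2 smallest p-values per interaction, the 3 largest muscle slopes and the 3 largest called differences per list; a few single-gene results under this rule are not reported here. Array number limits the precision; every slide lacked at least 1 capsule. Alternatives concerned background correction, normalisation, the filter, array weights, slide, probes per gene, other tissue in fat, doubted arrays and left-out arrays.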

Additional observations from a re-analysis of the deposited data

Results flagged for a closer look

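An array far from the rest of its group was sought in 160 combinations of a group and a measure. The groups held 4 or 5 arrays, the measures included complex means and marker scores, and 6 combinations had such an array. Chance alone gives about 1 in 20, but the combinations share arrays and are not independent. In fat, XY- with estradiol replicate 3 had a complex V mean log2 intensity of 11.38, where the other arrays of its group lay between 10.88 and 10.99. XX with testosterone replicate 1 had a muscle score of 8.02, against 12.1 to 12.22 in the other arrays of that group. XXSry with testosterone replicate 2 had a brown fat score of 6.27, against 7.07 to 7.33. In liver, XXSry with testosterone replicate 1 had a complex II mean of 8.41, against 8.71 to 8.78; this is the array without which 8 members were called with testosterone. XX with estradiol replicate 1 had a complex III mean of 11.69, against 11.93 to 12. XY-Sry with estradiol replicate 2 had a complex V mean of 10.78, against 10.57 to 10.63.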

How the results depend on the processing

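The members called with testosterone in fat numbered 4 in the main setting. They numbered 1 with median centring, 9 with array weights, 1 with the slide as a block, 2 with 1 probe per symbol, 9 with the muscle score as a covariate, 9 with the brown fat score, 2 with a score of Ucp1, Cidea and Otop1, 12 without high-muscle arrays, 7 with the array of conflicting label taken as testosterone, and 3 to 8 with 1 array left out. With estradiol in fat the 19 became 33 with array weights, 9 with the slide block, 6 with the brown fat score, 2 with the Ucp1, Cidea and Otop1 score, 7 with the macrophage score, 7 with the muscle and brown fat scores together, and 13 to 21 with 1 array left out. The gonad contrast in fat had 0 members and 1 with array weights. The 53 muscle slopes became 2 without high-muscle arrays and 46 to 63 with 1 array left out.

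With testosterone in liver the 1 member became 6 without background correction, 0 with median centring, 2 without the filter, 7 with array weights, 4 with the slide block, 2 with 1 probe per symbol and 2 without the doubted XY-Sry testosterone array. With 1 array left out it was 8 without XXSry testosterone replicate 1, 7 without XY- blank replicate 5 or XX blank replicate 5, 5 without XY-Sry testosterone replicate 1 or XXSry blank replicate 5, 4 without XY-Sry blank replicate 4, 3 without XY-Sry blank replicate 2 or XX testosterone replicate 1, 2 without any of 18 other arrays and otherwise 1. With estradiol in liver the 7 became 20 with median centring, where the median of all probes was -0.18 and that of members -0.25, and 4 to 9 with 1 array left out, with 4 without XY-Sry estradiol replicate 5 or XXSry estradiol replicate 5. The causes of these changes were not tested. Every other contrast (interactions, sex chromosome, gonad in liver) stayed at 0 members under each alternative and left-out array.

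For single calls, 284 of 403 settings kept direction and call, 111 kept the direction and lost the call, and 8 reversed, all for estradiol in fat. With the brown fat score as a covariate, Cox5a had 0.0128 and Ndufs7 0.00535. With the macrophage score, Cox5a had 0.0273, Cox6b (ILMN_2616405) 0.0031, Ndufs6 0.0391, Ndufs7 0.15, Ndufv1 0.00916 and Ndufv2 0.0473. These genes are named here because they reversed. Of 1745 fits that left out 1 array, 156 lost a call and 0 reversed. The Cox6a1 probe ILMN_2638875 kept its call under every alternative and left-out array with both hormones in fat, as did Uqcrc1, Ndufb8 and Ndufb9 with estradiol in liver. The fits with the Ucp1, Cidea and Otop1 score, with the macrophage score and without arrays holding liver transcripts were chosen after seeing the data. No paired analysis was possible because the labels carry no replicate numbers; the slide, a batch and not a pairing of arrays, was fitted as a block as given above. Signal over background limits Cox4i2, detected on 12 of 19 estradiol arrays.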

Other observations

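Regulators of mitochondrial content were counted as a list. Of 18 probes in fat, 5 fell and 2 rose with estradiol (median -0.10), where 10.1% of all tested probes fell and 20.5% changed. Ppargc1a, the coactivator of mitochondrial biogenesis, fell by 1.20 ± 0.23 (adjusted p = 0.000111), its relative Ppargc1b by 0.66 ± 0.20 (adjusted p = 0.0154) and the estrogen-related receptor Esrra by 0.33 ± 0.08 (adjusted p = 0.00143). Esrrb rose by 1.77 ± 0.23 (adjusted p = 4.86e-08) and the mitochondrial helicase Peo1 by 0.94 ± 0.16 (adjusted p = 1.01e-05). With testosterone, Peo1 was the only one of the 18 that changed (0.55 ± 0.16, adjusted p = 0.0279), a share near the 4.75% of all tested probes. Esrrb was lower with Sry than without (-1.20 ± 0.18, adjusted p = 1.9e-06). In liver, 4 of 18 fell with estradiol, where 3.27% of all tested probes fell. They were led by Ppara (-0.63 ± 0.15, adjusted p = 0.00394), Ppargc1b (-0.52 ± 0.15, adjusted p = 0.0225) and Esrra (-0.50 ± 0.08, adjusted p = 6.06e-05). With testosterone 3 of 18 fell, where 19.1% of all tested probes changed: Ppargc1a (-0.49), Ppara (-0.43) and Esrra (-0.24).

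Of 23 assembly factor probes outside the prefixes, 8 fell and none rose with estradiol in fat (median -0.08). Of all tested probes, 10.1% fell and 20.5% changed. The falls were led by Atpaf2, an assembly factor of ATP synthase (-0.59 ± 0.10, adjusted p = 7.26e-06), and Lrpprc, which stabilises mitochondrial mRNA (-0.47 and -0.41). With testosterone 1 of 23 fell, Foxred1, a complex I assembly factor (-0.29 ± 0.07, adjusted p = 0.0124), where 2.59% of all tested probes fell. In liver none of 23 changed with estradiol, where 6.82% of all tested probes changed. With testosterone 5 rose and 1 fell, where 8.17% of all tested probes rose and 19.1% changed. Foxred1 was among the risers (0.49 ± 0.13, adjusted p = 0.00549), the opposite sign to fat. Of 91 mitochondrial ribosome probes in fat, 10 fell and 3 rose with estradiol (median -0.09), where 10.1% of all tested probes fell. The share of 14.3% changed lies below the 20.5% of all tested probes. The largest called differences were those of Mrps6 (0.49), Mrpl35 (-0.44) and Mrpl12 (-0.39). With testosterone 1 of 91 fell, Mrps6 (-0.51), where 2.59% of all tested probes fell. Of 89 in liver, 13 rose and 1 fell with testosterone (8.17% of all tested probes rose and 19.1% changed). Among them was Mrps18b (0.47 ± 0.12, adjusted p = 0.00237). With estradiol 2 of the 89 fell, where 3.27% of all tested probes fell.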
